A study of Mus musculus with 18 samples.

Results

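The Ccdc genes are a set of genes that share a naming convention: each encodes a protein with a predicted coiled-coil domain, and the symbol carries no further statement of function. Members were taken as the genes of the array whose current symbol is Ccdc followed by a number and any letters. Each was represented by 1 probe set, the one with the highest mean log2 signal over all 18 arrays among those annotated to that gene alone. By this rule 119 Ccdc genes were found among the 18193 genes with a probe set of their own, and 53 of the 119 had more than 1 such probe set. Expression was measured on Affymetrix Mouse 430 2.0 arrays, an oligonucleotide platform, from total RNA of whole testes. The groups were mice homozygous for repro9 at 14 days postpartum (dpp, 5 arrays), wild-type mice at 14 dpp (3 arrays), repro9 homozygotes at 17 dpp (5 arrays) and wild-type mice at 17 dpp (5 arrays). Per the series' design text, cells up to mid pachytene were sought at the younger age and those of late pachytene or diplotene at the older. The repro9 allele is a chemically induced base substitution in Mybl1, the gene of the A-MYB transcription factor that acts in spermatocytes, so the level of the Mybl1 transcript is no check of the labels. The labels name no strain, and whether each array stands for a separate mouse is not stated, so p-values measure only the spread between these samples, which may be technical.

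Coiled coils are rod-like bundles of helices, and many of them act as rulers, staples and scaffolds. A subset of Ccdc proteins builds the axoneme, the microtubule core that cilia share with the sperm tail: they attach the dynein arms, hold the nexin links between doublets or line the microtubule wall. In the testis the axoneme is laid down in spermatids, while much of its RNA is made earlier, in pachytene spermatocytes. Other Ccdc proteins sit at centrioles, at the acrosome, in mitochondria, in the endoplasmic reticulum or in the nucleus, and for many no role is settled.

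The 119 members were divided by a list of known roles. The cilium-linked class held 19 members, of which 16 passed the filter on low signal and were tested. There were 8 members linked to centrioles or centriolar satellites, 3 to germ cells, 22 with another known role and 67 with no listed role. Of all members 106 passed the filter, which asked for a signal above the array's own 40th percentile on at least 3 arrays. The 13 that did not pass were the cilium-linked Ccdc63, Ccdc105 and Ccdc153, together with Ccdc17, Ccdc42os, Ccdc54, Ccdc70, Ccdc85a, Ccdc88b, Ccdc159, Ccdc182, Ccdc183 and Ccdc201. Ccdc42os is an opposite-strand transcript that bears the name and was kept. Symbols are moving: 42 further genes on the array once carried a Ccdc name and no longer do, and 6 of them (Bbof1, Cfap36, Cfap45, Cfap53, Cfap65 and Drc1) had stood in the cilium-linked list under that name.

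The arrays themselves fell into 3 sets by their β-actin control, as the signal of its 3′ probe set over that of its 5′ probe set. Set 1 held 7 arrays of all 4 groups with ratios of 2.31 to 2.92 (2 mutant and 2 wild type at 14 dpp, 2 mutant and 1 wild type at 17 dpp). Set 2 held 4 arrays of 14 dpp with ratios of 1.451 to 1.495 (3 mutant and 1 wild type). Set 3 held 7 arrays of 17 dpp with ratios of 102.6 to 125 (3 mutant and 4 wild type), and its trimmed mean signal was 0.790 times that of set 1. Genotypes were therefore mixed within each set, whereas ages shared only set 1. The median signal of an array ran from 88.7 to 149. Markers of pachytene spermatocytes moved with genotype. Of 9 tested, 7 were lower in mutants at 14 dpp and 9 at 17 dpp, beside 0.321% and 5.84% of all genes. The summed signal of these markers was 65170 to 137700 on wild-type arrays at 17 dpp against 2007 to 3880 on mutant arrays. In RNA of a whole organ, fewer cells of a type and less RNA per cell cannot be told apart. Of the markers of round spermatids (5 tested), spermatogonia (7), Sertoli cells (8), Leydig cells (4) and epididymis epithelium (2), none passed the test at either age, and of 6 macrophage markers Csf1r was higher in mutants at 17 dpp. The testis could also hold multiciliated cells of the efferent ducts. Foxj1, which defines them, did not pass the filter, Mcidas was not analysed here, and 1 of the 4 tested markers of that list, Cdhr4, was lower in mutants at 17 dpp. The summed signal of its 6 genes was 758.9 to 2124 on wild-type arrays and 419.3 to 794.9 on mutant arrays of that age. Cdhr4 (−3.50) and Deup1 (−1.395, not passing) were the genes of that list below 0. Foxj1 (1.32, not tested), Tppp3 (0.81), Cdhr3 (0.42, not tested) and Ccno (0.26) were above 0, and the list median was 0.34. The part of such cells in the results was not tested. The summed signal of the 7 round spermatid markers at 17 dpp was 354.1 to 865.5 on wild-type arrays and 475 to 1854 on mutant arrays.

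At 17 dpp, 24 of the 106 tested Ccdc genes (22.6%) were lower in mutants and 3 were higher. Over all 15266 genes tested in the same model, 5.84% were lower and 2.04% were higher. In the cilium-linked class 8 of 16 were lower (50%) and 1 was higher, and among the remaining 90 tested members 16 were lower (17.8%) and 2 higher. For 5 of the 24 lower members no mutant array at 17 dpp was above its 40th percentile. These were Ccdc65, Ccdc7a, Ccdc83, Ccdc175 and Ccdc192, which passed the filter through wild-type arrays alone. A lower call was favoured in advance for such members, and the same filter was applied to all genes. The genotype difference over all 19 cilium-linked members, tested or not, had a median of −1.46 on the log2 scale and was negative for 15. Over the 100 other members the median was −0.02, with 51 negative, and over all 18193 genes it was 0.23. Calls rest on limma with Benjamini-Hochberg adjustment over all 34764 probe sets tested and a threshold of 0.05. Centring every array on a common median moved all differences at 17 dpp by −0.14. It left 25 members lower and none higher (5.76% and 0.393% of all genes), and quantile normalization left 28 lower and none higher (6.42% and 1.4%), so the higher calls depended on the scaling. Mutant arrays all lay below all wild-type arrays for 19 of the 119 members at 17 dpp (16%) and above them for 2 (1.68%), where all genes gave 4.26% and 1.78%. The lower members came with the lower pachytene markers given above, and the part of those cells in the result was not tested.

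**Figure D1:**
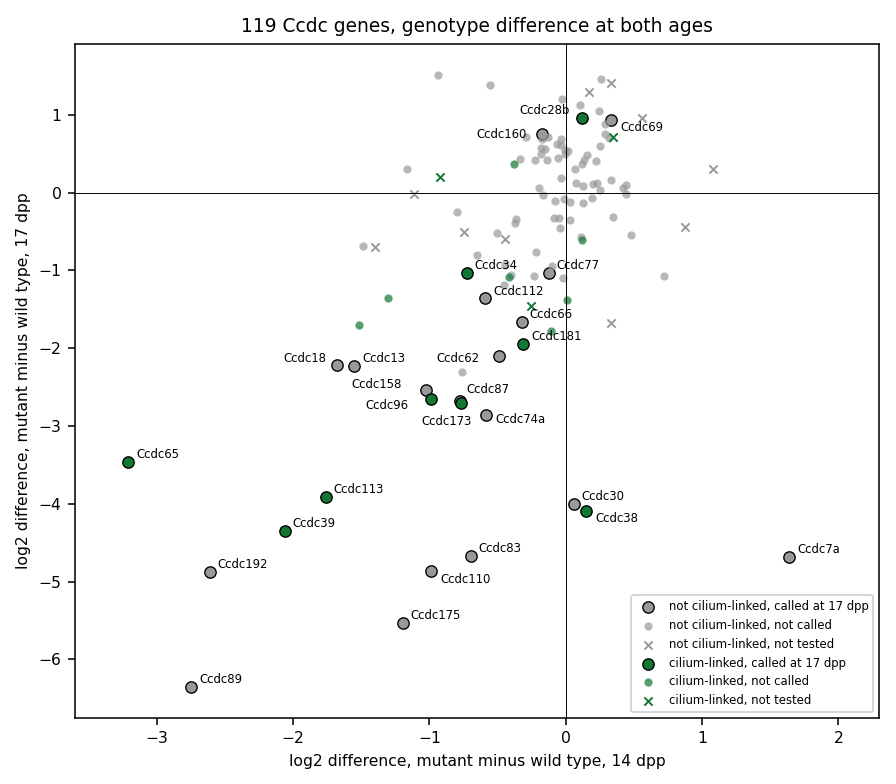
Genotype difference of each of the 119 Ccdc genes, as mean log2 signal of mutants minus wild type, at 14 dpp (horizontal axis) and at 17 dpp (vertical axis). Green points are cilium-linked members, grey points all others, black rims mark the 24 lower and 3 higher calls at 17 dpp, and crosses mark the 13 members that were not tested. Most called points lie far below 0 on the vertical axis and nearer to 0 on the horizontal one, with Ccdc89 lowest at −6.36.

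RFX factors bind the X-box, an inverted repeat before many ciliary genes, and MYB factors bind sites around an AAC core. The 250 bases before the transcription start were searched on both strands for 4 strings: the X-box (GTTNCC and GGNAAC with any 2 bases between), its half-site GTTGCC, the MYB core AACNG and the longer MYB site GGCAGTT. A half-site can lie inside an X-box and was then counted under both. Sequences are from RefSeq (GRCm38.p6), which held promoters for 96 of the 119 members and for 22 of the 24 lower at 17 dpp. The X-box was in 2 of the 96 genes (2.08%, beside 0.444% of all genes) and its half-site in 17 (17.7%, beside 11.8%). Among the 22 lower members the X-box was in Ccdc175 alone. Its half-site was in 4 (18.2%, Ccdc13, Ccdc66, Ccdc113 and Ccdc175), beside 17.6% of the 74 members not called lower. GGCAGTT was in none of the 22 (3.86% of all genes), and AACNG was in 20 (90.9%, beside 82.4% of the members not called lower and 76.8% of all genes). These matches are descriptions and not sites. In the windows printed below, capitals mark matches to the X-box, its half-site and GGCAGTT. Matches to AACNG, present in each window, were not marked. The last base of each window lies next to the start. Shown, 5′ to 3′ on the gene's strand, are both genes with an X-box and 2 lower members with a half-site close to the start. They are Ccdc175 (chr12:72185030-72185279, minus strand), Ccdc151 (chr9:22002635-22002884, minus strand), Ccdc113 (chr8:95533850-95534099, plus strand) and Ccdc13 (chr9:121839462-121839711, minus strand).
Ccdc175: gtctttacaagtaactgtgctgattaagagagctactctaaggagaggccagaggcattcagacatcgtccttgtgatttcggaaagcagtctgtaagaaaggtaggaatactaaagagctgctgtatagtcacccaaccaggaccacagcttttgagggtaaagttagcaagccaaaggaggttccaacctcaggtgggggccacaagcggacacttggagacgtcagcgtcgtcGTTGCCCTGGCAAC
Ccdc151: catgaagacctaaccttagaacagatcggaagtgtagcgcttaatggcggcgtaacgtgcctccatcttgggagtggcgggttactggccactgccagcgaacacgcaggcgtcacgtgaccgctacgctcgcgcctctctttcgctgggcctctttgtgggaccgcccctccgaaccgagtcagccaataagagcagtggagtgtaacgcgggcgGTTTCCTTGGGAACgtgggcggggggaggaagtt
Ccdc113: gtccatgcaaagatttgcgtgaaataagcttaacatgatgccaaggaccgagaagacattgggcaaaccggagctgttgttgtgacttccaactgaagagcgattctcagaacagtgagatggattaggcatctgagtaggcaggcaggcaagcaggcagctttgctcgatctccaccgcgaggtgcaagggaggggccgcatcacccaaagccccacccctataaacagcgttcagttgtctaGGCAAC
Ccdc13: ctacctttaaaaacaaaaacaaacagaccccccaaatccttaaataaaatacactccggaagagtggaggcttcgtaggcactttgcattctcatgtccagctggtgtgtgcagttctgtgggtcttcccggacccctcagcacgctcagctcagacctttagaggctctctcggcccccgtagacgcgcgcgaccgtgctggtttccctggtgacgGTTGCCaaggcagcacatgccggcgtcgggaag
In Ccdc175 the X-box started 14 bases before the transcription start and in Ccdc151 34 bases before it. Ccdc175 was lower in mutants at 17 dpp, and the lower values of Ccdc151 did not pass. The half-site of Ccdc113 lay on the other strand, starting 6 bases before the start, and that of Ccdc13 began 33 bases before it. No RFX string was found in the windows of Ccdc39 or Ccdc89, the members with the largest differences in their classes.

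Among the axonemal members, the largest difference belonged to Ccdc39, which with Ccdc40 forms the ruler that sets the spacing of dyneins and radial spokes along the doublet. Wild-type arrays at 17 dpp gave Ccdc39 signals of 4746, 11370, 14220, 13180 and 21940, and mutant arrays gave 217, 358, 873, 1207 and 781. All mutant arrays lay below all wild-type arrays, and the mutants were 20.3-fold lower (−4.35 ± 0.45 on the log2 scale, adjusted p 3.77e-06; each ± is limma's standard error). At 14 dpp its signals were 755, 1192 and 819 in wild type and 382, 186, 233, 139 and 207 in mutants, which also did not overlap, but that difference of −2.06 did not pass the adjusted test (0.243). A second tested probe set of Ccdc39 gave −6.18 at 17 dpp (adjusted p 3.62e-05). For Ccdc40, the partner, wild-type signals at 17 dpp were 960.4, 151, 9.71, 20.7 and 48.7 and mutant signals 34.5, 77.8, 13.7, 12.2 and 28.5. The groups overlapped, 1 wild-type array stood far above the other four, and the difference of −1.36 ± 0.92 did not pass (adjusted p 0.447). Without the arrays of set 3 it was −4.21, which rests on 1 wild-type array of 17 dpp, the one at 960.4.

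The nexin-dynein regulatory complex, which links neighbouring doublets, is represented by Ccdc65, and Ccdc113 and Ccdc96 form a pair bound near it. Ccdc113, whose promoter is printed above, gave 2316, 1012, 739, 226 and 1003 on wild-type arrays at 17 dpp and 35.6, 89.1, 53.6, 103 and 28.8 on mutant arrays. The groups did not overlap and differed 15.1-fold (−3.91 ± 0.59, adjusted p 2.71e-04). Ccdc96 gave 2219, 498, 479, 418 and 869 in wild type and 201, 205, 136, 40.4 and 85.5 in mutants. These did not overlap either, at 6.30-fold lower in mutants (−2.65 ± 0.48, adjusted p 0.0016). Ccdc65 gave 939, 136, 53.0, 18.7 and 88.5 in wild type, a spread from the highest in set 1 to the lowest in set 3, and 2.38, 30.0, 12.3, 8.06 and 9.79 in mutants. Its groups overlapped, the mutants were 11-fold lower (−3.46 ± 0.86, adjusted p 0.0206), and no mutant array was above its 40th percentile. The Ccdc65 call was lost without mutant replicate 1 at 17 dpp (adjusted p 0.0584) or without wild-type replicate 2 at 17 dpp (0.0538), within set 3 (0.0687), with array weights (0.0682) and with only the arrays of that age (0.142). At 14 dpp the mutant arrays lay below all wild-type arrays for Ccdc65 (116, 153 and 79.9 against 26.9, 6.70, 12.8, 9.91 and 11.5), for Ccdc113 (93.6, 173 and 106 against 31.2, 59.6, 54.2, 9.94 and 55.7) and for Ccdc96 (214, 396 and 325 against 151, 187, 183, 160.2 and 99.3). None of these 14 dpp differences passed the adjusted test, with log2 values of −3.21, −1.76 and −0.99. Ccdc153, also of the regulatory complex, was not tested and lay at 7.58 to 46.6 in wild type and 9.76 to 86.9 in mutants at 17 dpp.

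Ccdc173 lines the inner wall of the doublet microtubule. Its signals at 17 dpp were 1690, 1721, 2851, 1547 and 3711 in wild type and 222, 260.4, 275, 679 and 368 in mutants. There was no overlap, and the mutants were 6.54-fold lower (−2.71 ± 0.32, adjusted p 1.71e-05). At 14 dpp the groups were also apart, at 291, 357 and 394 in wild type and 203, 162, 217, 170.5 and 276 in mutants, without passing (−0.77, adjusted p 1). In wild type the Ccdc173 signal rose 6.28-fold from 14 to 17 dpp (adjusted p 3.85e-04). Of 3 other Ccdc173 probe sets, those at −2.93 and −3.68 passed at 17 dpp (adjusted p 0.0124 and 0.00168) and the dimmest, at −0.42, did not (0.796). Ccdc105, a sperm-specific protein of the tail doublets, was not tested: its wild-type signals at 17 dpp were 145, 96.0, 5.45, 23.2 and 4.58, of which 2 exceeded the array's 40th percentile, and its mutant signals were 3.27, 18.9, 11.7, 9.32 and 7.58.

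Dynein arms are docked by Ccdc114 and Ccdc151, and Ccdc103 is needed to fix them to the doublet. None of the 3 passed at 17 dpp in the fit of all arrays without the array set. With the set as a block Ccdc151 was lower (−2.31, adjusted p 0.0231). Without the arrays of set 3, which leaves 1 wild-type array at 17 dpp, Ccdc114 was −4.29 and Ccdc103 −1.63. Ccdc151 gave 882, 37.4, 22.4, 39.7 and 152 in wild type and 65.6, 66.4, 16.8, 9.40 and 17.9 in mutants. The overlap was wide, and the difference was −1.70 ± 0.91 (adjusted p 0.318). Ccdc114 gave 115, 82.4, 88.2, 18.9 and 84.0 and 7.39, 4.72, 145, 139 and 44.6 in the same order (−1.08 ± 0.90, adjusted p 0.549). For Ccdc103 the values were 639, 66.0, 9.87, 168 and 174 in wild type and 199.5, 212, 121, 92.4 and 89.7 in mutants (0.36 ± 0.73, adjusted p 0.838). The mutant arrays of Ccdc114 split by set, with the 2 of set 1 lowest, so that the difference was −4.29 within set 1 and 0.73 within set 3. The sign of Ccdc103 likewise changed, from −1.63 within set 1 to 0.60 within set 3. Ccdc63, a relative of the docking proteins found in the sperm tail, was below the filter, at 7.58 to 46.5 in wild type and 12.6 to 47.0 in mutants at 17 dpp.

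Several members of the class are known from the sperm tail or its base. Ccdc38, a protein of the sperm flagellum, rose with age: wild-type signals were 38.4, 31.6 and 61.1 at 14 dpp and 834, 3195, 3889, 2356 and 9193 at 17 dpp (adjusted p 0.00119). No array of 14 dpp was above its 40th percentile for Ccdc38, so the size of the rise is uncertain. Mutant arrays at 17 dpp gave 41.7, 20.1, 489, 1250 and 307. The lowest 2 of these were the arrays of set 1, the highest mutant array exceeded the lowest wild-type array, and the mutants were 17.0-fold lower (−4.09 ± 0.87, adjusted p 0.00657). The mutant arrays at 14 dpp, at 35.3 to 64.9, overlapped those of wild type. The call at 17 dpp was lost when only arrays of that age were fitted (adjusted p 0.0686). A second Ccdc38 probe set gave −5.43 at 17 dpp (adjusted p 8.95e-06). Ccdc181, a microtubule-binding protein of the sperm tail, gave 3902, 1548, 1482, 1085 and 2371 in wild type and 942, 825, 347, 262 and 386 in mutants at 17 dpp. These did not overlap, and the mutants were 3.85-fold lower (−1.94 ± 0.36, adjusted p 0.00194). Ccdc34, needed for sperm tail formation, gave 1584, 2291, 1847, 1746 and 1917 in wild type and 1017, 776, 806, 874 and 1142 in mutants. That was a smaller but non-overlapping difference, 2.04-fold (−1.03 ± 0.25, adjusted p 0.016). The second Ccdc34 probe set, far dimmer, gave 0.16 (adjusted p 0.949), and the mean of both was −0.44 (0.52). The Ccdc34 call was lost in 6 of 34 alternatives, among them quantile normalization (adjusted p 0.0594), array weights (0.0918), set 1 alone (0.246) and all arrays but those of set 3 (0.356).

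Ccdc146, a centriole and sperm tail protein, gave 81.0, 221, 266, 211 and 271 in wild type and 28.0, 20.2, 125, 101 and 79.5 in mutants at 17 dpp. The groups overlapped through wild-type replicate 1, the single wild-type array of set 1. The difference of −1.78 ± 0.57 did not pass (adjusted p 0.0838), and without that array it was −2.10 (0.0289). It also passed with the array set as a block (0.0291), after quantile normalization (0.0194) and with 32 added to every signal (0.0329). Ccdc189, associated with the radial spokes, gave 544, 103, 20.9, 41.5 and 32.2 and 78.0, 127, 15.96, 6.63 and 12.6 in the same order (−1.38 ± 0.83, adjusted p 0.38). Ccdc189 was called lower with the array set as a block (−2.06, adjusted p 0.00209) and within set 3 (−1.91, 0.0254). Without the arrays of set 3, which leaves 1 wild-type array at 17 dpp, Ccdc189 was −2.45. Ccdc172, a tektin-binding protein of the sperm midpiece, gave 1324, 933, 824, 226 and 963 in wild type and 1058, 873, 297, 223 and 445 in mutants (−0.61 ± 0.46, adjusted p 0.503). In all 3 the range of mutant signals reached into that of wild type. Ccdc28b, a modifier of Bardet-Biedl syndrome that acts in making cilia, was the one cilium-linked member called higher, with 1193, 798, 662, 1169 and 433 in wild type and 1329, 2085, 1653, 1815 and 1066 in mutants. The groups overlapped and differed 1.94-fold (0.96 ± 0.27, adjusted p 0.0435), and the call was lost in 22 of 34 alternatives, which included both scalings. The 3 other Ccdc28b probe sets gave 1.03 to 1.42 and did not pass.

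**Figure D2:**
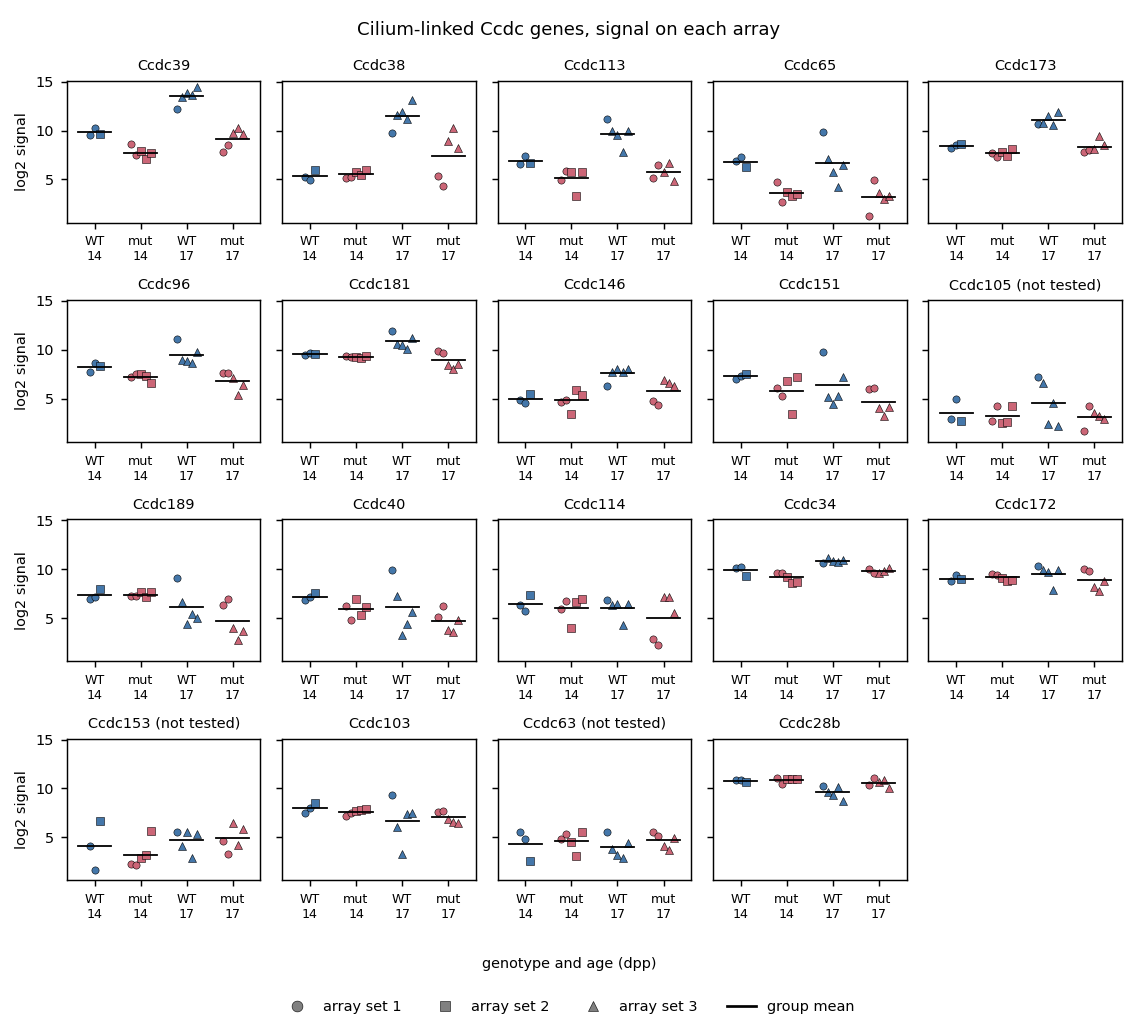
Log2 signal of the 19 cilium-linked Ccdc genes on each of the 18 arrays, by genotype (blue wild type, red mutant) and age in dpp, with bars at group means and marker shapes for the 3 array sets. Panels run from the most negative to the most positive genotype difference at 17 dpp, from Ccdc39 at −4.35 to Ccdc28b at 0.96. In all panels but Ccdc34, Ccdc38, Ccdc39, Ccdc146 and Ccdc173 the wild-type array of set 1 stands above the other 4 wild-type arrays at 17 dpp, by differing margins. In Ccdc34, Ccdc38, Ccdc39 and Ccdc146 it is the lowest of them.

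Because set 3 had far higher 3′ to 5′ ratios, the 17 dpp comparison was repeated inside each set, pooling the spread over all 18 arrays. The median over the 19 cilium-linked members was −2.81 within set 1 and −1.27 within set 3, against −0.17 and 0.02 for the other 100 and 0.22 and 0.21 for all genes. Set 1 gave 19 lower and no higher calls among the 106 tested, beside 4.09% and 0.236% of all genes. Set 3 gave 28 lower and 5 higher, beside 8.69% and 7.18%. With the set as a block in the model, 37 members were lower and 9 higher, beside 11.5% and 14.5%. Ccdc39 was −4.09 within set 1 and −3.97 within set 3, and Ccdc173 was −2.81 and −2.49. The difference of Ccdc65 was −6.80 and −2.57, that of Ccdc40 −4.21 and −1.05. Set 1 holds 1 wild-type array at 17 dpp, which was assumed to vary like the rest.

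**Figure D3:**
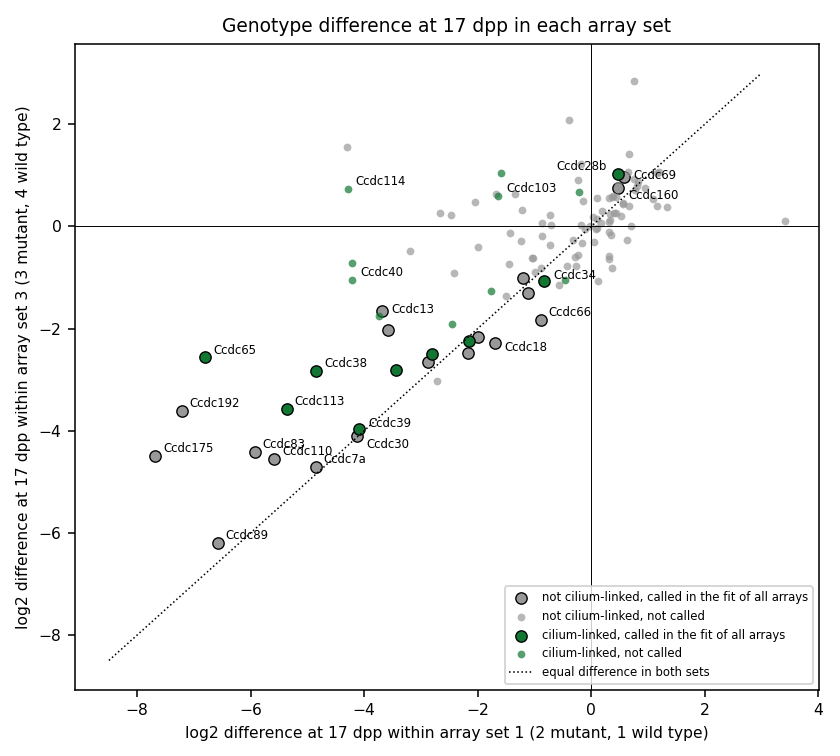
Genotype difference at 17 dpp (log2, mutant minus wild type) of each of the 119 Ccdc genes within array set 1 (horizontal axis, 2 mutant and 1 wild-type array) and within array set 3 (vertical axis, 3 mutant and 4 wild-type arrays). Members called in the fit of all arrays have black rims. The lower calls are below 0 on both axes, and Ccdc114 and Ccdc103 are among the members with opposite signs.

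Outside the cilium-linked class, Ccdc89 showed the largest difference of any member. Its product is described as a partner of Hey transcription factors, and no ciliary role was listed for it. At 17 dpp wild-type arrays gave 3389, 3638, 3669, 1956 and 5304 and mutant arrays 41.8, 29.9, 96.4, 48.0 and 22.0. The lowest wild-type signal was above every mutant signal, and the mutants were 81.9-fold lower (−6.36 ± 0.39, adjusted p 1.16e-08). One mutant array exceeded its 40th percentile, so the size of that fold rests on signals near the bottom of the scale, and with 32 added to every signal the difference was −5.51. A second Ccdc89 probe set gave −3.37 (adjusted p 0.0164).

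Ccdc89 was also 1 of the 2 members called at 14 dpp, where 2 of 106 (1.89%) were lower and none higher, beside 0.321% and 0% of all genes. At an unadjusted p under 0.05 there were 8 lower members and none higher, 4 of the 8 being cilium-linked, beside 2% and 0.4% of all genes. Ccdc89 signals at 14 dpp were 227, 428 and 192 in wild type and 32.02, 33.3, 50.3, 60.6 and 29.4 in mutants. They did not overlap and differed 6.72-fold (−2.75 ± 0.45, adjusted p 0.00721). Ccdc18, a protein of unsettled function, gave 1191, 1475 and 881 in wild type and 492, 439, 408, 217 and 326 in mutants, 3.19-fold lower (−1.68 ± 0.32, adjusted p 0.0272). At 17 dpp its wild-type arrays gave 1348, 1999, 3034, 2396 and 2395 and its mutant arrays 367, 470.2, 427, 438 and 659, again without overlap (−2.22 ± 0.27, adjusted p 2.84e-05). Its 2 other probe sets, both dim, gave 0.65 (not tested) and −0.11 (not passing) at 14 dpp, and −0.18 (not tested) and 0.34 at 17 dpp. The second, dimmer Ccdc89 probe set gave −1.07 at 14 dpp and did not pass. With the probe sets of a gene averaged neither 14 dpp call was kept, at −0.38 for Ccdc18 and −1.91 for Ccdc89 (adjusted p 0.309 for Ccdc89). With the replicate number as a block neither 14 dpp call was kept (adjusted p 0.0542 for Ccdc89 and 0.101 for Ccdc18), and without wild-type replicate 2 at 14 dpp none remained (0.146 and 0.387). Mutant arrays at 14 dpp lay below all wild-type arrays for 17 of the 119 members (14.3%, beside 3.89% of all genes), 6 of them cilium-linked, and above them for none (2.14% of all genes). The median difference at 14 dpp was −0.42 over the 19 cilium-linked members, −0.05 over the others and 0.01 over all genes.

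Members lower at 17 dpp that no ciliary list held included several from the testis or of unknown function. Ccdc110 and Ccdc83 are known as cancer/testis antigens, proteins normally confined to the testis that appear in some tumours. Ccdc110 gave 1233, 889.6, 649.6, 381 and 2976 in wild type and 35.1, 18.9, 131, 9.32 and 46.8 in mutants, 29.2-fold lower (−4.87 ± 0.67, adjusted p 9.70e-05). Ccdc83 gave 999, 209, 267, 163 and 861 and 13.3, 20.3, 6.87, 12.3 and 31.99 in the same order (−4.67 ± 0.68, adjusted p 1.75e-04). Neither gene's groups overlapped. At 14 dpp both were near the bottom of the scale in both genotypes, with 33.1 to 69.6 (wild type) and 7.66 to 41.8 (mutant) for Ccdc110 and 15.9 to 42.9 and 7.30 to 45.1 for Ccdc83.

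Ccdc175 and Ccdc192, both of unknown function, were at the bottom of the scale in mutants at 17 dpp, with no mutant array above its 40th percentile. Ccdc175, the lower member with an X-box, gave 722, 355, 269.5, 143 and 731 in wild type and 25.8, 0.48, 13.8, 86.0 and 2.29 in mutants (−5.54 ± 1.17, adjusted p 0.0066). Ccdc192 gave 455, 286, 252, 125 and 398 and 2.83, 3.34, 16.4, 35.3 and 13.6 in the same order (−4.88 ± 0.71, adjusted p 1.78e-04). Both were without overlap. With 32 added to every signal the differences were −3.01 and −2.80, so the folds of such dim signals are uncertain while the direction was the same. The same holds for Ccdc7a and Ccdc83, at −2.99 and −3.12 under that setting.

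Ccdc7a, Ccdc30 and Ccdc89 were the 3 members (2.83% of those tested, beside 0.36% of all genes) whose genotype difference became more negative from 14 to 17 dpp in a test of the difference itself, and none became more positive (0% of all genes). Ccdc30, of unknown function, gave 88.1, 167 and 94.8 in wild type and 144, 105, 114, 132 and 94.0 in mutants at 14 dpp, which overlapped. At 17 dpp it gave 2505, 1944, 1629, 622 and 4290 in wild type and 161, 128, 142, 66.2 and 102 in mutants. Mutant signals thus stayed in one range at both ages while every wild-type array at 17 dpp lay above it (−4.005 ± 0.41, adjusted p 3.26e-06; change between ages −4.06 ± 0.62, adjusted p 0.0114). The other 6 probe sets of Ccdc30 ran from −5.07 to 1.13 at 17 dpp. Those at −5.07, −4.01 and −1.30 passed (adjusted p 5.59e-05, 0.00088 and 0.0431), and those at −1.03, −0.70 and 1.13 did not. With all 7 averaged the change between ages was −1.66 (adjusted p 0.17). Ccdc7a gave 402, 292, 146, 158 and 1289 in wild type and 20.7, 9.31, 21.3, 6.08 and 12.4 in mutants at 17 dpp, without overlap (−4.68 ± 0.79, adjusted p 7.84e-04). A second tested Ccdc7a probe set gave −1.76 and did not pass (0.27). At 14 dpp no array exceeded its 40th percentile for Ccdc7a, at 3.53, 11.8 and 3.22 in wild type and 31.3, 29.7, 4.56, 5.06 and 48.5 in mutants, and its change between ages was −6.32 ± 1.20 (adjusted p 0.0346, lost in 18 of 31 alternatives). Ccdc7a passed the filter through the wild-type arrays of 17 dpp alone, so the direction of its calls was favoured in advance. For Ccdc89 the change was −3.61 ± 0.60 (adjusted p 0.0154). Without wild-type replicate 1 or replicate 3 at 14 dpp no member passed this test.

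Ccdc74a, of unknown function, gave 444, 537, 660.3, 760.2 and 734 in wild type and 48.6, 75.5, 112, 237 and 43.8 in mutants at 17 dpp, 7.29-fold lower and without overlap (−2.87 ± 0.40, adjusted p 1.13e-04). Its 4 other probe sets gave −2.30 to 0.27, none of which passed. The remaining lower members with no listed role were Ccdc158 (−2.53), Ccdc112 (−1.36) and Ccdc77 (−1.03), with adjusted p of 0.00333, 0.00545 and 0.00769. The 2 other Ccdc77 probe sets, at −1.21 and −1.02, did not pass (0.314 and 0.417). In all, 12 of the 58 tested members with no listed role were lower (20.7%) and 1 higher (1.72%), beside 5.84% and 2.04% of all genes.

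**Figure D4:**
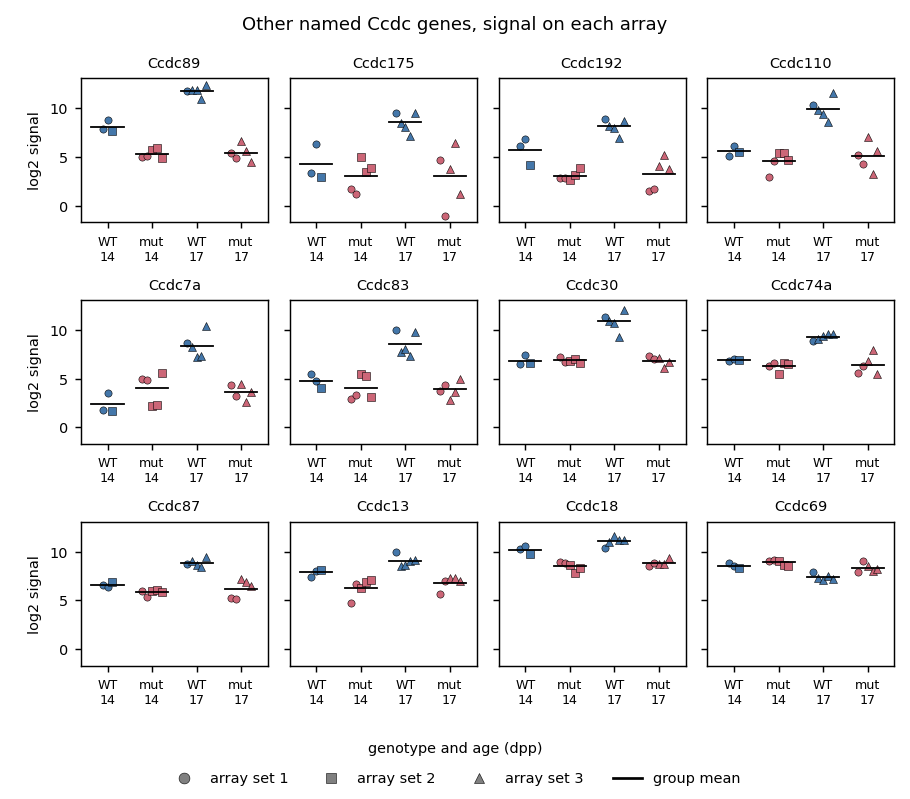
Log2 signal on each array of the 12 named Ccdc genes outside the cilium-linked class, by genotype and age in dpp, with bars at group means and marker shapes for the 3 array sets. Panels run from the most negative genotype difference at 17 dpp, Ccdc89 at −6.36, to Ccdc69 at 0.94. In the 11 lower genes every wild-type array at 17 dpp is above every mutant array of that age. For all but Ccdc18 and Ccdc89, which were also called at 14 dpp, that separation was a condition of their choice.

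All 3 germ cell members act late, in making or using the acrosome. In the fit of all arrays without the array set, Ccdc87 and Ccdc62 passed at 17 dpp and Ccdc136 did not. Ccdc87 gave 433, 526, 395, 343 and 704 in wild type and 37.3, 35.2, 145, 119 and 88.8 in mutants, without overlap (−2.68 ± 0.39, adjusted p 1.83e-04). Ccdc62 gave 2911, 1339, 1184, 638 and 2189 and 628, 666, 245, 165 and 261 in the same order, in which 1 mutant array of set 1 exceeded the lowest wild-type array (−2.10 ± 0.40, adjusted p 0.00289). Ccdc136 gave 5052, 486, 659, 465 and 1038 and 787, 756, 122, 39.0 and 95.3 (−2.30 ± 0.73, adjusted p 0.0793). Within set 1 Ccdc136 was −2.71 (adjusted p 0.00923) and within set 3 −3.03 (2.86e-05), both past the threshold. At 14 dpp mutant arrays lay below all wild-type arrays for all 3, with differences of −0.77, −0.49 and −0.76 that did not pass. None of the 5 tested round spermatid markers passed at either age.

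Of the 8 centriole or satellite members, Ccdc13 and Ccdc66 were lower at 17 dpp (25%) and none was higher, beside 5.84% and 2.04% of all genes. Both are proteins of centriolar satellites, the granules that bring material to the base of the cilium. Ccdc13, with the half-site shown above, gave 1024, 376, 385, 529.8 and 546 in wild type and 50.6, 124, 158, 154 and 123 in mutants, without overlap (−2.23 ± 0.44, adjusted p 0.00381). Ccdc66 gave 1724, 3568, 4073, 2543 and 4351 and 938, 921, 833, 677 and 1795, which overlapped (−1.66 ± 0.28, adjusted p 7.69e-04). A second, dim Ccdc66 probe set gave −1.58 and did not pass (0.454). The other 6 ran from −1.07 (Ccdc92) to 0.97 (Ccdc57), and the class median was −0.11.

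Of the 22 members with another known role 21 were tested. None was lower and Ccdc69 was higher at 17 dpp, beside 5.84% and 2.04% of all genes. The median difference was 0.34 at 17 dpp beside 0.23 over all genes. Ccdc69 takes part in the central spindle of dividing cells. It gave 239.8, 160.3, 134, 184 and 145 in wild type and 240.5, 533, 357, 258 and 302 in mutants at 17 dpp, the lowest mutant array being level with the highest wild-type array (0.94 ± 0.27, adjusted p 0.0466). The call was lost in 24 of 34 alternatives, and the 2 other Ccdc69 probe sets, at 1.25 and 1.01, did not pass (0.449 and 0.333). The X-linked Ccdc160, of unknown function, was the remaining higher call (0.75 ± 0.21, adjusted p 0.0405), with 849, 545, 712, 608 and 515 in wild type and 1061, 1316, 938, 796 and 1343 in mutants, which overlapped. The other X-linked members, Ccdc22 and Ccdc120, gave 0.05 and 0.48 and did not pass. The 3 members of highest mean signal were Ccdc90b, a mitochondrial membrane protein, Ccdc47, which acts in the endoplasmic reticulum, and Ccdc122. At 17 dpp Ccdc90b lay at 4812 to 7700 in wild type and 5935 to 8026 in mutants (0.19 ± 0.19). Ccdc47 lay at 2692 to 3967 and 1778 to 3489 (−0.35 ± 0.34), and Ccdc122 at 1334 to 3058 and 1576 to 3158 (−0.03 ± 0.31). All 3 overlapped and none passed (adjusted p 0.626, 0.623 and 0.973).

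With age in wild type, 20 of the 106 tested members were higher at 17 than at 14 dpp (18.9%) and 13 lower (12.3%), beside 7.05% and 18.9% of all genes. Of the cilium-linked members 7 of 16 were higher (Ccdc38, Ccdc39, Ccdc113, Ccdc173, Ccdc146, Ccdc181 and Ccdc34) and Ccdc28b was lower. Ages differ in array set, and the scaling moved these counts: centring on a common median gave 26 higher and 2 lower (9.58% and 4.1% of all genes), quantile normalization 27 and 3 (9.47% and 8.99%). Within set 1, which holds both ages, 11 were higher and none lower, beside 1.98% and 0.766% of all genes, and the median over the cilium-linked members was 2.32 (0.53 over all arrays). In that set Ccdc38 was 4.58 (adjusted p 0.00813) and Ccdc39 2.32 (0.0235). Outside the class Ccdc7a, Ccdc110 and Ccdc175 were among those called higher with age (adjusted p 7.15e-04, 0.00222 and 0.0324). At 14 dpp at most 1 of the 3 wild-type arrays was above its 40th percentile for each of them, so no fold is given. In mutants no member passed between 14 and 17 dpp, beside 0.648% of all genes higher and 1.12% lower. At an unadjusted p under 0.05, 12 members were higher and 16 lower in mutants, beside 9.09% and 21.2% of all genes. The adjusted counts in either direction reached 19 without mutant replicate 1 at 17 dpp (21.7% of all genes), 14 without mutant replicate 2 (19.1%) and 10 without wild-type replicate 1 of that age (12.9%). The wild-type and mutant age comparisons share no array, but the wild-type one shares its 17 dpp arrays with the genotype comparison, so the 2 are not independent.

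Axonemal genes without a Ccdc name were read beside the members, in 1 list with factors that assemble dynein arms and transcription factors of ciliary genes. Of 25 such partners listed, 22 were on the array and 20 were tested. At 14 dpp 1 was lower, beside 0.321% of all genes. At 17 dpp 11 were lower and none higher, beside 5.84% and 2.04% of all genes. The median at 17 dpp was −2.22 over the 22 (0.23 over all genes). The factors that assemble dynein arms before they enter the axoneme included Zmynd10 (−5.98, adjusted p 7.29e-06), Dnaaf6 (−5.51, 1.05e-06), Lrrc6 (−4.53, 1.15e-06) and Dnaaf4 (−2.81, 1.49e-05), all of them lower. Dnaaf2 (−0.88, adjusted p 0.136) and Dnaaf5 (−0.15, 0.899) of the same role did not pass. Zmynd10 was also the partner lower at 14 dpp (−5.02, adjusted p 0.00372). The regulatory complex subunits Drc1 (−3.44, adjusted p 8.95e-04) and Drc3 (−2.41, 0.00168) were lower together with Ccdc65, while Gas8 of the same complex was not (−0.03, 0.993). Of the other listed partners of that complex, Iqcd was lower (−2.11, adjusted p 0.0122). Iqcg (−2.30, 0.195) and Tcte1 (−1.21, 0.276) did not pass, and Fbxl13 was not tested. Ttc25 of the docking complex was lower (−3.68, adjusted p 1.68e-05), and its partner Armc4 did not pass (−2.68, 0.0543). Of the transcription factors of ciliary genes, Rfx2 was lower (−2.44, adjusted p 0.0436) and Rfx3 was not (0.48, 0.49).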

How the data were processed

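Total RNA of whole testes was hybridised to 18 Affymetrix Mouse 430 2.0 arrays. The values are the authors' deposited signal intensity per probe set on a linear scale. They were made with Affymetrix GCOS, per the labels' design text, and with MAS5, per the submitters' processing notes (version not given in the sources used here). Of 45101 probe sets 64 were controls. Log2 signal was used as deposited, and no normalization between arrays was added. The 34764 probe sets that exceeded the 40th percentile of an array for 3 or more arrays were fitted in R 4.3.3 with limma 3.58.1 as 4 group means over all 18 arrays (14 residual degrees of freedom, moderated with trend), with Benjamini-Hochberg adjustment and a threshold of 0.05. The number of arrays limits the precision. A single probe set represents a gene here, and other probe sets of a gene can differ from it. Symbols came from the platform annotation updated through Entrez ID (118 of 119 members matched, Ccdc42os by platform symbol). The method was tested on simulated data. Members and lists were chosen with earlier results of these data known.

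Genes were named by a rule: all cilium-linked members, members called at 14 dpp, up to 10 lower and 6 higher called members per age without overlap between genotypes, and the 3 members of highest mean signal. Ccdc22, Ccdc57, Ccdc62, Ccdc66, Ccdc77, Ccdc92, Ccdc112, Ccdc120, Ccdc136, Ccdc158 and Ccdc160 fall outside it and were chosen after their values were seen. Replicate numbers are shared by the genotypes. Deviations from group means of same-numbered arrays correlated at 0.28, 0.35 and 0.39 at 14 dpp, where each pair also lay within 1 array set. At 17 dpp they correlated at −0.23 to 0.78. The main fit did not pair arrays at either age, and a block on replicate number over the arrays of both ages was an alternative. Alternatives covered the scaling, filter, pseudocount, probe sets, samples fitted, weights, blocks, moderation, threshold and each array left out. Comparisons within an array set were added after seeing the data.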

Additional observations from a re-analysis of the deposited data

Results flagged for a closer look

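In 6 of 102 groups checked, 1 array lay far from the rest of its group, where chance alone marks about 1 in 20. Low arrays were wild-type replicate 4 at 17 dpp for Ccdc114 (18.9) and for Ccdc172 (226), wild-type replicate 1 at 17 dpp for Ccdc146 (81.0), mutant replicate 2 at 14 dpp for Ccdc28b (1429) and mutant replicate 1 at 17 dpp for Ccdc13 (50.6). A high array was mutant replicate 5 at 14 dpp for Ccdc153 (50.6), a gene below the filter. The genotype difference changed between ages by −6.32 for Ccdc7a, −4.06 for Ccdc30 and −3.61 for Ccdc89 on the log2 scale, each by limma's test of the change itself.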

How the results depend on the processing

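Of 25 called results for named genes, 11 kept their call under every alternative run and none changed sign. The counts of members called moved as follows. Where no share over all genes is given above, as for array weights and most arrays left out, none was computed. Such counts do not tell whether a shift was particular to Ccdc genes. Common median: 1 lower at 14 dpp, 0 higher at 17 dpp, and between ages 2 lower in wild type and 6 in mutants. Quantile normalization: 1, 0, 3 and 4. Without a filter 0 were higher at 17 dpp, and above the 60th percentile 5, with 1 in mutants between ages. With 32 added to the signal, 5 changed more between ages and 2 in mutants. With only the arrays of that age or genotype, 5 were lower at 14 dpp, 0 higher at 17 dpp and 6 lower with age in wild type. Array weights gave 17 lower and 3 higher at 14 dpp, 1 higher at 17 dpp, 7 for the change between ages, 34 lower and 31 higher with age in wild type and 33 in mutants. The array set block gave 37 lower and 9 higher at 17 dpp, 9 for the change and 2 lower with age. Without the 7 arrays of high ratio, 4 were lower at 14 dpp, 0 higher at 17 dpp, 10 changed between ages, 4 were lower with age in wild type and 8 moved in mutants, and the cilium-linked median was −2.81. The replicate block gave 0 lower at 14 dpp, 8 lower with age in wild type and 1 in mutants, and 27 lower and 3 higher at 17 dpp. The mean of probe sets gave 0 at 14 dpp, 1 for the change and 2 in mutants. Without moderation 5 were higher at 17 dpp and 8 lower with age, and at 0.025 the counts were 1 lower at 14 dpp, 0 higher at 17 dpp and 5 lower with age. Within set 1 there was 1 lower at 14 dpp and 0 higher at 17 dpp (median −2.81), within set 2 0 lower at 14 dpp, and within set 3 5 higher at 17 dpp. The cause of these shifts was not tested.

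Leaving out 1 array gave 0 to 2 lower at 14 dpp, 22 to 27 lower and 0 to 9 higher at 17 dpp, 0 to 5 for the change between ages, 1 to 23 lower and 12 to 26 higher with age in wild type, and 0 to 19 in mutants. The cilium-linked median ran from −1.998 to −0.88 and that of the others from −0.07 to 0.05. The 9 higher and the 23 lower came without wild-type replicate 1 at 17 dpp, and the 1 or 2 lower with age without any one wild-type array of 14 dpp. The uncalled genes below changed sign at 17 dpp. Ccdc103 was −0.026 with the array set block, −1.63 without the high-ratio arrays and within set 1, and −0.49 to 1.02 with single arrays left out (lowest without wild-type replicate 3). Ccdc114 was 0.73 within set 3. Ccdc122 was 0.15 with the block, 0.31 without the high-ratio arrays and within set 1, 0.093 within set 3, and −0.24 to 0.11 with single arrays left out. Signals under the array's 40th percentile limit the size of the folds of Ccdc7a, Ccdc38, Ccdc110, Ccdc65, Ccdc83, Ccdc175 and Ccdc192.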
